A study of Mus musculus with 2 samples.

Results

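The genes of fatty acid uptake, storage and oxidation were compared between 1 wild-type (WT) and 1 SRSF1-MKO RNA sequencing library of hindlimb skeletal muscle, taken from C57BL/6 mice at postnatal day 30. The 42 members were chosen by symbol, and all 42 were found among the 44787 gene rows of the deposited table. SRSF1 is a serine/arginine-rich splicing factor; the labels give the genotype as SRSF1-MKO without spelling out the abbreviation, the driver of the deletion or the number and sex of the animals. Levels are FPKM, reads scaled for transcript length and for the mapped reads of the library, as the authors deposited them. Each group holds 1 library, so no difference has a replicate check and no test between genotypes was made. Each sample's description holds 1 line that names the WT column and 1 line that names the KO column, so the lines do not settle the match; every direction below rests on the genotype in the column names.

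Muscle takes long-chain fatty acids from the blood, where lipoprotein lipase releases them from triglyceride, and CD36 and fatty acid transport proteins carry them across the membrane. Inside the fibre they are bound by FABP3 and activated to acyl-CoA by long-chain acyl-CoA synthetases. They are then either stored in lipid droplets, coated by perilipins and emptied by the lipases ATGL (Pnpla2), HSL (Lipe) and MGL (Mgll), or passed by the carnitine shuttle into mitochondria. Beta-oxidation shortens the chain there in repeated rounds and hands electrons to the respiratory chain through the electron transfer flavoprotein. Oxidative fibres are known to hold more of this machinery than fast glycolytic ones.

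Of the oxidation genes 12 of 24 measured were higher in the SRSF1-MKO library and 1 was lower. Oxidation here covers the carnitine shuttle with its malonyl-CoA control, core and auxiliary beta-oxidation, electron transfer and the acyl-CoA thioesterases. The thioesterases Acot1 and Acot2 are 2 of the 12. Single genes of uptake (Fabp3, Cd36), activation (Acsl6) and lipolysis (Pnpla2) were higher beside them. The other transport proteins, the perilipins measured and the carnitine shuttle genes were within 1.5-fold. A gene counts as higher or lower when SRSF1-MKO and WT differ by at least 1.5-fold on the log2(FPKM + 1) scale, and is measured when its mean is at least 1 FPKM. Of the 42 members 40 were measured, the exceptions being Plin5 and Ehhadh. Of these 40, 16 were higher (40.0%, against 23.7% of all 10478 genes measured) and 2 were lower (5%, against 8.13% of all genes). Both directions together, 31.8% of all genes passed the limit. The median log2 ratio was 0.49 over the members and 0.21 over all genes. At 2-fold, 9 members were higher (22.5%, against 9.44% of all genes) and 2 lower (5%, against 3.12%). Acot1, counted as higher in each case, reached a mean of 1 FPKM only through the SRSF1-MKO library (0.360 FPKM in WT).

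The count depends on how the libraries are scaled. All rows summed to 462919 FPKM in WT against 575130 FPKM in SRSF1-MKO, and mitochondrially encoded rows made up 19.5% and 35.4% of these sums. With each library scaled to a common sum, 10 members were higher and 5 lower, against 14.6% and 17.4% of all genes. With the median of the 4991 genes that averaged at least 5 FPKM (log2 ratio 0.32) set to 0, the split was 9 higher and 5 lower, against 11.4% and 18.1% of all genes. Below, the all-gene median set to 0, and centring on it, mean this shift of 0.32, not the 0.21 over all 10478 genes measured. After the shift the median of those 10478 genes was -0.12. Leaving mitochondrially encoded genes and ribosomal RNA out of the sum gave 17 and 3, against 27.5% and 9.91% of all genes. Fabp3, Pnpla2, Acot2, Cd36, Acadl, Echs1, Decr1 and Etfdh were higher, and Acsl3 and Acads lower, under each of these scalings. Acot1 was also higher under each, but passed the filter only through the SRSF1-MKO library.

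**Figure D1:**
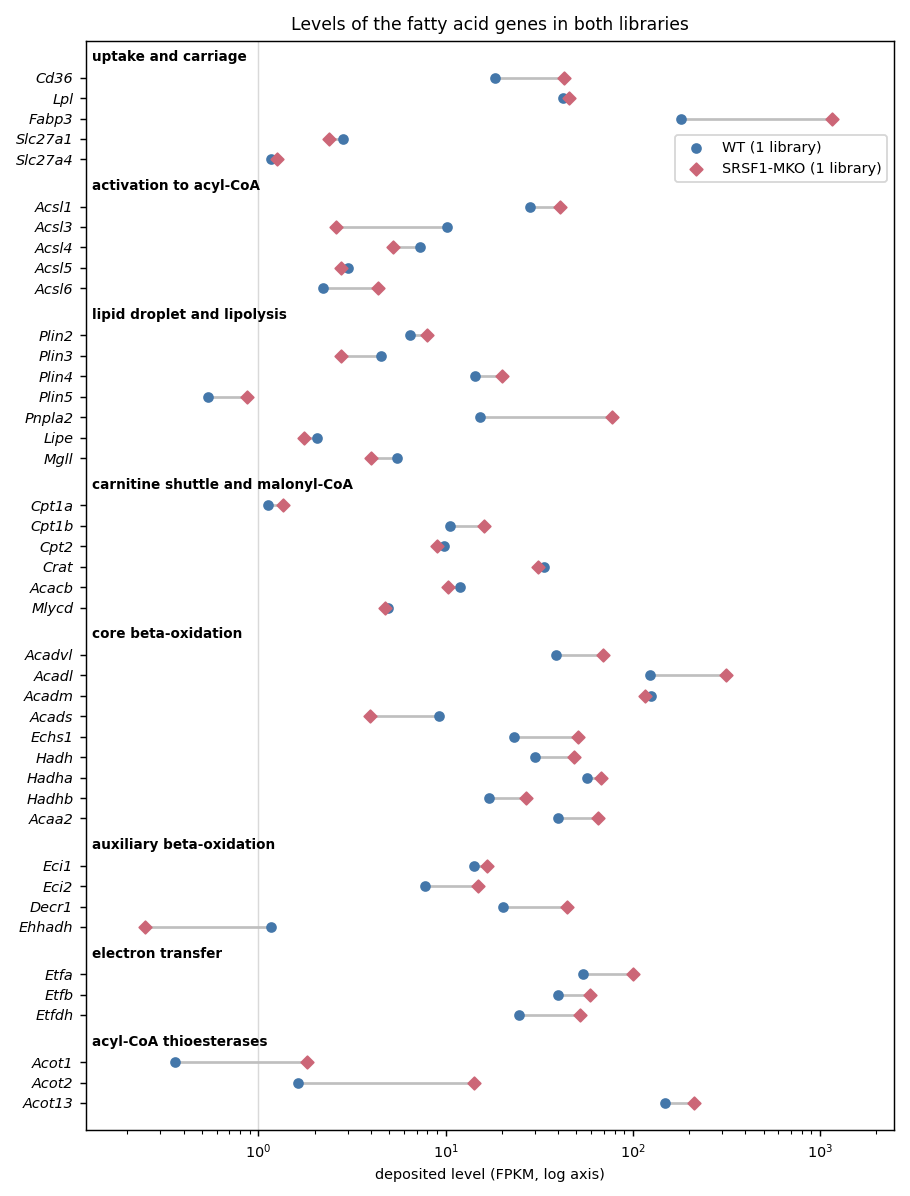
Deposited FPKM (log axis) of the 42 genes by step of the pathway, with a circle for the WT library and a diamond for the SRSF1-MKO library. Fabp3 lies farthest to the right in both, at 181 and 1158 FPKM, and Acsl3, Acads and Ehhadh are the genes whose diamond lies well to the left of the circle.

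Promoter sequences are shown for the members with the largest FPKM ratios whose start region lies wholly or mostly outside annotated exons. They are also shown for 3 of the 4 higher members that hold the hexamer AGGTCA, all but Acsl6. This hexamer is the core motif of nuclear receptors such as PPAR and ERR, which are known regulators of fatty acid oxidation. Sequences are from RefSeq (GRCm38), 5′ to 3′ on the gene's strand, within 250 bases upstream of the annotated start and without bases that GENCODE places in an exon; capitals mark the hexamer on either strand. Pnpla2 (chr7:141454938-141455187, plus strand) and the neighbouring thioesterase genes Acot2 (chr12:83987611-83987860, plus strand) and Acot1 (chr12:84009252-84009489, plus strand) hold none in this window. Cd36 (chr5:17835897-17836146, minus strand) holds it on the opposite strand, and Acadvl (chr11:70015429-70015678, minus strand) and Echs1 (chr7:140116477-140116671, minus strand) hold it on the gene's strand.
Pnpla2: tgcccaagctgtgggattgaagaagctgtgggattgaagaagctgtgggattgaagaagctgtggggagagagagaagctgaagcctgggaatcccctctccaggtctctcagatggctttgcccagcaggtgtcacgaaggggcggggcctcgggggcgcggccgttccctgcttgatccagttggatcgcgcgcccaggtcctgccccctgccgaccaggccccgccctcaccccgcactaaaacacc
Acot2: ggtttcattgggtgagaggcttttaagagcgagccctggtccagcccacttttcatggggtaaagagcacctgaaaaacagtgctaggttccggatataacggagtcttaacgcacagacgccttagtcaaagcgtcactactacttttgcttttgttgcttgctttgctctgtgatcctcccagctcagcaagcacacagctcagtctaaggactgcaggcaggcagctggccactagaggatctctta
Acot1: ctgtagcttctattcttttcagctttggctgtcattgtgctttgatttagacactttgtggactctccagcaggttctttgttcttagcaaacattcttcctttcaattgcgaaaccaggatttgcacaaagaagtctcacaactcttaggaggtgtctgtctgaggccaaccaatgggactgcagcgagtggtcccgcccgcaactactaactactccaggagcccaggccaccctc
Cd36: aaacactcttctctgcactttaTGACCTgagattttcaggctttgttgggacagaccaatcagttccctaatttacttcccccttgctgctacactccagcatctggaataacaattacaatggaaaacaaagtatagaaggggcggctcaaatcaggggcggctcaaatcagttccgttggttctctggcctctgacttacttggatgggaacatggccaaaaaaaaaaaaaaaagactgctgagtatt
Acadvl: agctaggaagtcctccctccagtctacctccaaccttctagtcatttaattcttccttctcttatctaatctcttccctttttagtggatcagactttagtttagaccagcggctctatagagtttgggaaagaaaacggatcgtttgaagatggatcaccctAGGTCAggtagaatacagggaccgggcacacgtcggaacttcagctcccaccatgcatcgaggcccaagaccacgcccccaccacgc
Echs1: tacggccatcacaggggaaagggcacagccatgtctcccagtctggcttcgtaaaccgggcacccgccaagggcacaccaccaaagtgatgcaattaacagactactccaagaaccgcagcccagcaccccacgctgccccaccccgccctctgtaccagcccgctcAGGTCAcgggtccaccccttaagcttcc

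Of the 42 members 36 had a promoter in the RefSeq table, with 44 start sites. The search covered all 250 bases of each window, exonic ones included. AGGTCA, on either strand, was present in 8 of these 44 windows (18.2%), against 14% of all 32851 promoters. The 8 windows belong to 8 genes: Acadm, Acadvl, Acsl6, Cd36, Cpt1a, Echs1, Plin2 and Plin5. Of the 8, 4 were higher in SRSF1-MKO (Acadvl, Acsl6, Cd36 and Echs1), and of the 28 member genes without the hexamer 10 were higher. Over all 10478 genes measured 23.7% were higher. Plin5 among the 8 and Ehhadh among the 28 were under the filter and could not be called. The PPAR response element, searched as 2 copies of the hexamer in the same direction with any 1 base between them, was found in 0 of the 44 member windows and in 0.0335% of all promoters. The ERR element TCAAGGTCA, which also contains it, was found in 1 member window, that of Acsl6, and in 0.387% of all promoters. These matches describe letters in a window and are not binding sites.

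Uptake and carriage split between 2 higher and 3 near-equal genes. Fabp3 encodes the heart-type fatty acid-binding protein, which carries fatty acids through the cytosol of heart and muscle (ENSMUSG00000028773.8, chromosome 4, 130308595 to 130315463, plus strand). It was at 181 FPKM in the WT library and 1158 FPKM in the SRSF1-MKO library, 6.40-fold higher, with a 95% counting interval from 6.18 to 6.64. Counting intervals throughout are exact binomial intervals on reads worked out from the FPKM and hold no variation between animals. For 9 members, Fabp3 among them, these reads are approximate. Fabp3 was the most abundant member per length in both libraries, and it made up 15.2% of the summed FPKM of all members in WT against 41.7% in SRSF1-MKO. The sum without it was 1013 FPKM in the WT library and 1618 FPKM in the SRSF1-MKO library, 1.6 times as much.

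Cd36, the scavenger receptor that takes up long-chain fatty acids, was at 18.3 and 43.1 FPKM, a ratio of 2.35 (2.16 to 2.57) from 755 and 1639 reads. Lpl, the lipoprotein lipase that frees fatty acids in the capillary bed, was at 42.3 and 45.5 FPKM. The fatty acid transport proteins Slc27a1 (2.83 and 2.39 FPKM) and Slc27a4 (1.17 and 1.26 FPKM) were low in both libraries, and the counting intervals of their ratios, 0.692 to 1.03 and 0.816 to 1.41, included 1. The signs of the log2 ratios of Lpl (0.10) and Slc27a4 (0.06) turned negative when ratios were centred on the all-gene median.

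Acyl-CoA synthetases, which trap fatty acids as acyl-CoA and differ in their place in the cell, moved apart. Acsl3, the form of the endoplasmic reticulum and of growing lipid droplets (ENSMUSG00000032883.15, chromosome 1, 78657825 to 78707743, plus strand), had the lowest ratio of the measured members. It was at 10.2 FPKM in the WT library and 2.59 FPKM in the SRSF1-MKO library, 3.94-fold lower (interval 3.40 to 4.60). Acsl6 was higher, at 2.23 and 4.36 FPKM (ratio 1.96, interval 1.71 to 2.25). Under a common sum and with the all-gene median set to 0, Acsl6 was within 1.5-fold (log2 ratios 0.56 and 0.41). Acsl1, the main muscle form, was within 1.5-fold at 28.1 and 40.8 FPKM, as were Acsl4 (7.30 and 5.25 FPKM) and Acsl5 (3.02 and 2.76 FPKM).

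The sum of the 5 synthetases was nearly equal, at 50.9 FPKM in the WT library and 55.7 FPKM in the SRSF1-MKO library, but its make-up differed. Acsl1 made up 55.3% of this sum in WT and 73.1% in SRSF1-MKO, and Acsl3 20.1% and 4.65%. Acsl6 made up 4.37% and 7.83%. Per-length levels of different genes depend on the gene lengths the authors used, so these shares are those of the deposited values.

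**Figure D2:**
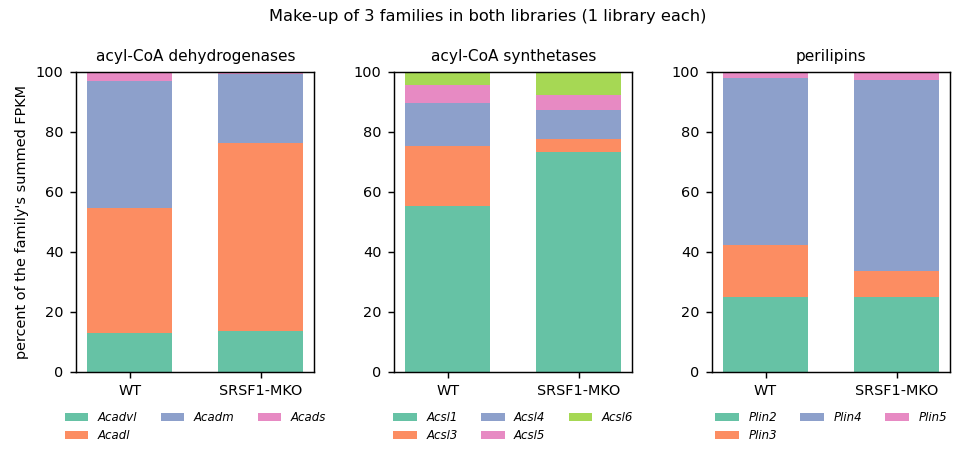
Stacked bars of the percent of summed FPKM that each gene takes within the acyl-CoA dehydrogenases, the acyl-CoA synthetases and the perilipins, for the WT and the SRSF1-MKO library. Acadl and Acsl1 take larger shares in SRSF1-MKO (62.7% and 73.1%) than in WT (41.5% and 55.3%), while Acadm and Acsl3 take smaller ones.

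Among lipid droplet and lipolysis genes, Pnpla2 stood apart. It encodes adipose triglyceride lipase, the enzyme of the first step of triglyceride breakdown (ENSMUSG00000025509.15, chromosome 7, 141455198 to 141460743, plus strand). Its level was 15.3 FPKM in the WT library and 77.9 FPKM in the SRSF1-MKO library, 5.08-fold higher (interval 4.74 to 5.45) from 964 and 4518 reads. The lipases of the next steps were not higher: Lipe, hormone-sensitive lipase, was at 2.07 and 1.75 FPKM, and Mgll, monoglyceride lipase, at 5.52 and 4.0 FPKM. Lipe and Mgll were within 1.5-fold, and with the all-gene median set to 0 Mgll was lower.

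The perilipins, which coat droplets and gate the lipases, were within 1.5-fold where measured. Plin4 was at 14.4 and 20.1 FPKM and Plin2, the perilipin of most tissues, at 6.48 and 7.92 FPKM. Plin3 was at 4.52 and 2.76 FPKM, a 1.64-fold lower FPKM (interval 1.31 to 2.06) that stayed within 1.5-fold on the log2(FPKM + 1) scale (-0.56) and passed it with a pseudocount of 0.1. Plin5, the perilipin of oxidative tissues that tethers droplets to mitochondria, was at 0.541 and 0.868 FPKM, from 25 and 37 reads. The interval of its ratio, 0.940 to 2.78, included 1. The median log2 ratio of the 6 measured genes was 0.05, and -0.27 with the all-gene median set to 0. Without Pnpla2 the summed level of the droplet genes was 33.6 FPKM in the WT library and 37.4 FPKM in the SRSF1-MKO library.

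Markers of fat cells were compared in the same libraries. Over all genes 23.7% were higher and 8.13% lower, and 11.4% and 18.1% with the all-gene median set to 0. Of 10 adipocyte genes 9 were measured, 6 were lower and 0 higher. The list summed to 295 FPKM in WT against 355 FPKM in SRSF1-MKO, of which Fabp4, which endothelium also expresses, was 246 and 334 FPKM. Without Fabp4 the sum was 49.3 FPKM in WT against 21.2 FPKM in SRSF1-MKO, and 0 of the genes were listed at 0. The hormone adiponectin (Adipoq) was at 9.36 and 2.66 FPKM, and the fat cell perilipin Plin1 at 2.62 and 0.660 FPKM. Fat cells are known to express Lpl, Cd36, Lipe, Mgll, Plin4 and Pnpla2, and the part of fat cells in the values of these members was not tested. In whole-tissue RNA, fewer cells of a type and less RNA per cell cannot be told apart. Endothelial markers (10 measured, 1 higher and 2 lower) summed to 331 and 400 FPKM with Fabp4 and to 84.8 and 65.9 FPKM without it. With the all-gene median set to 0, 0 of them were higher and 6 lower. Macrophage markers (9 measured, 6 higher and 0 lower) summed to 42.3 and 105 FPKM. With the all-gene median set to 0, 4 of these were higher and 0 lower. The part of endothelium and macrophages in the members' values was not tested either.

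The carnitine shuttle and its control by malonyl-CoA was the 1 step of 8 with 0 genes higher and 0 lower, out of 6 (median log2 ratio -0.07). Cpt1b, the muscle carnitine palmitoyltransferase of the outer membrane and the gate of mitochondrial entry, was just inside the limit. It was at 10.6 FPKM in the WT library and 16.1 FPKM in the SRSF1-MKO library, a ratio of 1.52 (interval 1.38 to 1.68) and a log2(FPKM + 1) ratio of 0.56; with a pseudocount of 0.1 it counted as higher. Cpt1a, the liver form, made up 9.61% of the summed Cpt1 FPKM in WT and 7.79% in SRSF1-MKO.

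Cpt2, its partner on the inner membrane, was at 9.85 and 8.97 FPKM, and Crat, carnitine acetyltransferase, at 33.6 and 31.3 FPKM. Acacb, the acetyl-CoA carboxylase whose product malonyl-CoA blocks CPT1, was at 12 and 10.4 FPKM. Mlycd, the decarboxylase that removes malonyl-CoA, was at 4.91 and 4.76 FPKM. The intervals of the ratios of Cpt1a, Cpt2 and Mlycd included 1, and those of Crat (0.885 to 0.978) and Acacb (0.816 to 0.918) lay below it.

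Of the 9 core beta-oxidation genes 6 were higher and 1 lower in the deposited scaling (median log2 ratio 0.66), against 23.7% and 8.13% of all genes. With the all-gene median set to 0, 2 were higher (Acadl and Echs1) and 1 lower (Acads). The first step, run by acyl-CoA dehydrogenases of different chain lengths, differed in direction between its genes. Acadl, the long-chain enzyme (ENSMUSG00000026003.5, chromosome 1, 66830839 to 66863277, minus strand), was at 123 FPKM in the WT library and 317 FPKM in the SRSF1-MKO library, 2.57-fold higher (interval 2.49 to 2.65). Acadvl, the very-long-chain enzyme, was at 38.7 and 69.1 FPKM, a ratio of 1.78 (1.69 to 1.89). Acadm, the medium-chain enzyme, was nearly equal at 126 and 116 FPKM (ratio 0.921, interval 0.887 to 0.956).

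Acads, the short-chain enzyme (ENSMUSG00000029545.13, chromosome 5, 115110299 to 115119346, minus strand), was at 9.22 FPKM in the WT library and 3.97 FPKM in the SRSF1-MKO library, 2.32-fold lower (interval 1.95 to 2.80). In order of chain length the ratios were thus 1.78, 2.57, 0.921 and 0.431, with intervals that cover counting error only. Acadl made up 41.5% of the summed FPKM of these 4 genes in WT and 62.7% in SRSF1-MKO, Acadm 42.3% and 22.9%, and Acads 3.11% and 0.785%. Their sum was 297 and 506 FPKM.

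The later steps of the round were higher with 1 exception. Echs1, the short-chain enoyl-CoA hydratase, was at 23.4 and 51.2 FPKM (ratio 2.19, interval 2.06 to 2.33). Hadh, the hydroxyacyl-CoA dehydrogenase of shorter chains, was at 30.2 and 48.3 FPKM, and Acaa2, the thiolase of the matrix, at 40.0 and 65.1 FPKM. The trifunctional protein, which runs these steps for long chains on the inner membrane, has an alpha subunit encoded by Hadha and a beta subunit encoded by Hadhb. Hadha was at 56.7 and 67.8 FPKM (ratio 1.20, interval 1.15 to 1.24) and Hadhb at 17.1 and 26.9 FPKM (ratio 1.58, interval 1.48 to 1.68). The RefSeq starts of these divergent neighbours on chromosome 5 lie 273 bases apart. With the libraries scaled to a common sum, Hadh, Hadhb, Acaa2 and Acadvl were within 1.5-fold.

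Enzymes that prepare unsaturated chains for the round were higher in 2 of 3 measured genes, against 23.7% of all genes. Decr1, the mitochondrial dienoyl-CoA reductase, was at 20.4 FPKM in the WT library and 44.5 FPKM in the SRSF1-MKO library (ratio 2.18, interval 2.05 to 2.33), and the isomerase Eci2 at 7.76 and 14.9 FPKM (ratio 1.92, interval 1.67 to 2.21). With the median of genes averaging at least 5 FPKM set to 0, Eci2 was within 1.5-fold (log2 ratio 0.54), and of the 3 only Decr1 was higher. The isomerase Eci1 was at 14.3 and 16.7 FPKM. Ehhadh, the bifunctional enzyme of peroxisomes, was the member with the lowest ratio of FPKM. It was at 1.16 and 0.249 FPKM, from 81 and 16 reads, 4.67-fold lower (interval 2.71 to 8.56), with a mean under 1 FPKM.

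The electron transfer genes were above their WT level in all 3 cases, by 1.48- to 2.13-fold. Of all genes measured only 34.1% were below their WT level. Counted at 1.5-fold, 2 of the 3 were higher, against 23.7% of all genes. Etfdh, the ubiquinone oxidoreductase that passes the electrons on, was at 24.6 and 52.2 FPKM (ratio 2.13, interval 1.99 to 2.27). Etfa, the alpha subunit of the flavoprotein, was at 54.2 and 99.9 FPKM (ratio 1.84, interval 1.73 to 1.97). Under a common sum and with the median of genes averaging at least 5 FPKM set to 0, Etfa was within 1.5-fold (log2 ratios 0.57 and 0.55). Etfb, the beta subunit, was at 39.7 and 58.9 FPKM (ratio 1.48, interval 1.36 to 1.63), just inside the limit.

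Acyl-CoA thioesterases, which cut acyl-CoA back to free fatty acid and CoA, included the member with the largest ratio of FPKM. Acot2, the mitochondrial matrix form (ENSMUSG00000021226.7, chromosome 12, 83987861 to 83993873, plus strand), stood at 1.63 FPKM in the WT library and 14.2 FPKM in the SRSF1-MKO library. It was 8.74-fold higher (interval 6.94 to 11.1), from approximately 83 and 668 reads. The cytosolic form Acot1 was at 0.360 and 1.83 FPKM, 5.07-fold higher (3.15 to 8.37), and passed the filter only through the SRSF1-MKO library. Their RefSeq starts lie 21641 bases apart on chromosome 12 and their coding sequences are closely alike, so the division of reads between them is uncertain. Acot13, a thioesterase of another family, was among the most abundant members in both libraries and within 1.5-fold, at 148 and 214 FPKM.

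**Figure D3:**
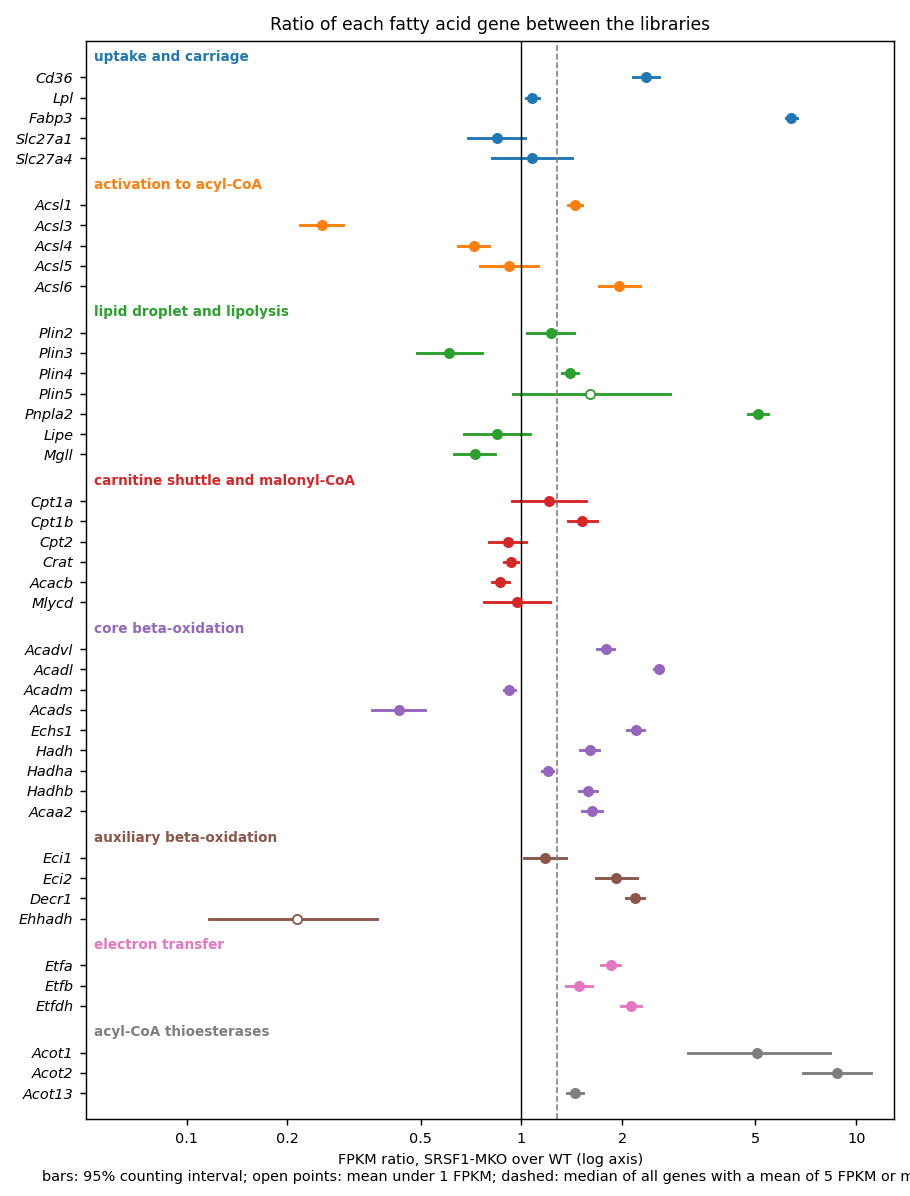
FPKM ratio of SRSF1-MKO over WT (log axis) for each member, with bars for the 95% counting interval, open points for the members with a mean under 1 FPKM and a dashed line at the median ratio of genes averaging at least 5 FPKM (1.28). Acot2, Fabp3, Pnpla2 and Acot1 lie above 5, and the 6 genes of the carnitine shuttle lie between 0.865 and 1.52.

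By stage, the 24 measured oxidation genes had 12 higher and 1 lower (median log2 ratio 0.59), the 10 uptake and activation genes 3 and 1 (median 0.08), and the 6 lipid droplet genes 1 and 0 (median 0.05). Over all genes the shares were 23.7% higher and 8.13% lower, so that 3 of 10 and 1 of 6 lie near the all-gene share. Centred on the all-gene median, oxidation had 6 higher and 1 lower, with 2 and 2 for uptake and activation, and 1 and 2 for lipid droplet genes. The medians of the last groups turned negative under a common sum (-0.18 and -0.23) and with the all-gene median set to 0 (-0.24 and -0.27), whereas that of oxidation stayed positive (0.31 and 0.27). No test of the difference between stages was made. The order of the 42 members by level was much alike in both libraries (Spearman rho 0.938 across genes, which are not replicates). The most abundant after Fabp3 were Acot13, Acadm and Acadl in WT and Acadl, Acot13 and Acadm in SRSF1-MKO, and Pnpla2 went from rank 19 to rank 6.

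**Figure D4:**
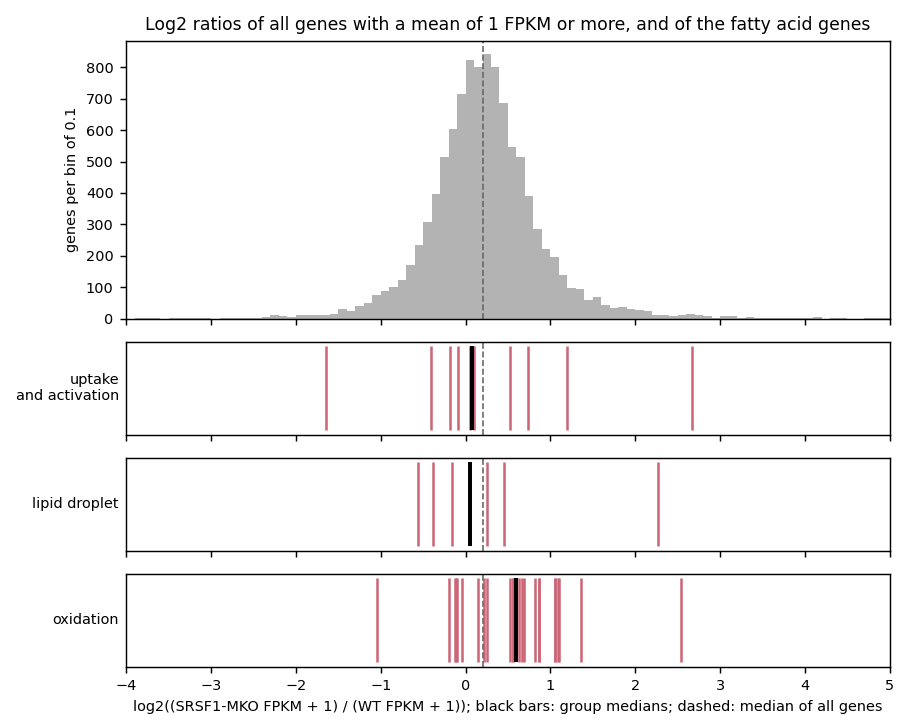
Histogram of log2((SRSF1-MKO FPKM + 1)/(WT FPKM + 1)) for the 10478 measured genes, with the measured members of each stage as lines on the same axis, stage medians as black bars and the all-gene median of 0.21 dashed. Of the 24 oxidation genes 17 lie to the right of the dashed line (median 0.59), and Acads lies far to their left.

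The genes that surround the pathway were described by the same counts in the deposited scaling, and their balance depends on it. Of 78 measured genes 26 were higher (33.3%) and 18 lower (23.1%), against 23.7% and 8.13% of all genes. With the all-gene median set to 0 the counts were 16 and 24, against 11.4% and 18.1% of all genes. The all-gene shares are the same for each list below. Regulators of the pathway had 7 of 13 measured genes higher and 0 lower (median log2 ratio 0.71), and 5 and 1 with the all-gene median set to 0. Pdk4, the kinase that turns fuel choice from pyruvate towards fat, was at 16.3 and 299 FPKM, and the uncoupling protein Ucp3 at 20.1 and 69.5 FPKM. The coactivator Ppargc1a (3.23 and 11.9 FPKM) and its partner receptors Esrra (5.08 and 10.5 FPKM) and Esrrg (1.0 and 5.12 FPKM) were higher. Of the PPAR receptors themselves, Ppard was at 3.50 and 5.41 FPKM, Pparg at 2.07 and 1.81 FPKM and Ppara, under the filter, at 0.536 and 0.604 FPKM.

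Further uptake genes had 5 of 9 higher and 1 lower (median 0.68). Angptl4, a secreted inhibitor of lipoprotein lipase and known PPAR target, was at 0.272 and 4.60 FPKM, a ratio of 16.9 (interval 9.45 to 33.3). Angptl4 passed the filter only through the SRSF1-MKO library. Vldlr, a receptor for triglyceride-rich particles, was at 6.60 and 26.9 FPKM, Dbi, the acyl-CoA-binding protein, at 108 and 231 FPKM, and Got2, named also as a membrane fatty acid-binding protein, at 112 and 237 FPKM. Gpihbp1, the endothelial anchor of lipoprotein lipase, was at 7.37 and 12.4 FPKM. Cav1 was lower, at 28.3 and 17.2 FPKM.

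Known partners of Pnpla2 were G0s2 and Abhd5. G0s2, its inhibitor, was at 21.5 and 93.1 FPKM (ratio 4.33, interval 3.89 to 4.84), and Abhd5, its coactivator, at 4.56 and 7.90 FPKM (ratio 1.73, interval 1.51 to 1.99). G0s2 stayed higher under a common sum and with the all-gene median set to 0, whereas Abhd5 was then within 1.5-fold. The other droplet genes counted were the lower fat cell genes Plin1 and Cidec, with 5 within 1.5-fold (median 0.06). In triglyceride synthesis 4 of 9 genes were higher and 1 lower (median 0.35); Dgat2, of the last step, was at 4.84 and 17.6 FPKM, Agpat3 at 9.18 and 21.9 FPKM, Lpin1 at 26.6 and 41.6 FPKM and Gpat4 at 7.01 and 11.2 FPKM. Agpat2, a form of fat tissue, was lower at 2.33 and 1.01 FPKM.

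Of the 9 neighbouring lists, fatty acid synthesis had the most lower genes, 6 of 10, and 0 higher (median log2 ratio -0.68). Scd1, the stearoyl-CoA desaturase, was at 28.6 and 5.08 FPKM, fatty acid synthase (Fasn) at 5.11 and 0.731 FPKM and malic enzyme (Me1) at 52.7 and 13.2 FPKM. Of the adipocyte markers given above 6 were lower in the same library, fat cells are known to express these genes, and their part in the values was not tested. Peroxisomal oxidation had 3 of 12 higher (25%, near the 23.7% of all genes) and 3 lower (25%, against 8.13%), with a median of -0.20. With the all-gene median set to 0 the counts were 1 and 4. Pex11a, of peroxisome division, was at 2.29 and 10.6 FPKM, and Ech1, an isomerase, at 17.3 and 26.7 FPKM. Amacr (5.05 and 1.49 FPKM), the transporter Abcd2 (9.29 and 4.99 FPKM) and the thiolase Acaa1a (5.24 and 3.12 FPKM) were lower.

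Other mitochondrial oxidation genes split into 3 higher and 3 lower of 8 (median 0.46). Etfrf1, a regulator of the electron transfer flavoprotein, was at 7.17 and 19.9 FPKM, Them4 at 1.5 and 2.92 FPKM and Hsd17b10 at 11.4 and 19.0 FPKM. Acsf3 (3.01 and 1.12 FPKM), Acad11 (11.1 and 5.62 FPKM) and Acss1 (2.38 and 1.23 FPKM) were lower. Ketone body genes had 2 of 5 higher and 1 lower (median 0.36). Oxct1, which activates ketone bodies for use, was at 111 and 30.3 FPKM, while Bdh1 was at 0.0554 and 4.01 FPKM and the transporter Slc16a1 at 5.44 and 24.1 FPKM. Bdh1 passed the filter only through the SRSF1-MKO library. Of the carnitine transport and synthesis genes 3 were measured, of which the peroxisomal Crot was lower at 12.3 and 6.78 FPKM. Slc25a20, the carnitine carrier of the inner membrane, was at 7.68 and 10.4 FPKM and Aldh9a1 at 1.57 and 0.794 FPKM.

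**Figure D5:**
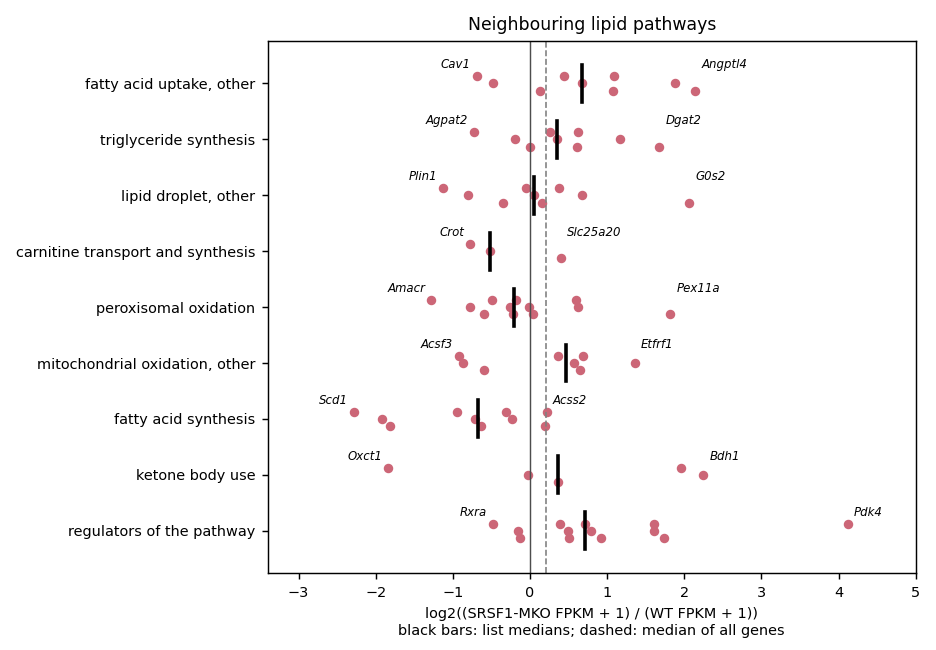
Log2((SRSF1-MKO FPKM + 1)/(WT FPKM + 1)) of the measured genes in 9 neighbouring lipid lists, with list medians as black bars, the all-gene median of 0.21 dashed and the outermost gene of each side named. Fatty acid synthesis lies lowest (median -0.68) and the regulators highest (median 0.71), with Pdk4 at 4.12.

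The libraries showed the markers of skeletal muscle, with 10 of 10 fibre genes measured and the actin Acta1 at 13109 FPKM in the WT library and 10040 FPKM in the SRSF1-MKO library. The targeted gene Srsf1 was at 13.7 and 6.70 FPKM. For this gene no whole number of reads was found at the annotated length, and it is deposited on a scaffold outside the main chromosomes. Of the 10 fibre genes 5 were higher and 3 lower, against 23.7% and 8.13% of all genes. The higher genes were myoglobin (Mb, 242 and 2135 FPKM), the fast myosins Myh2 (78.2 and 2399 FPKM) and Myh1 (1176 and 4028 FPKM), desmin (Des, 1532 and 4385 FPKM) and the myogenic factor Myog (8.87 and 64.1 FPKM). The lower genes were Myh4, the myosin of fast glycolytic fibres (28777 and 7176 FPKM), creatine kinase (Ckm, 6495 and 2397 FPKM) and the fast troponin Tnnt3 (14875 and 7779 FPKM). The part of fibre type in the members' values was not tested. Depth, worked out from the steps of the FPKM values, was 23146640 reads in WT and 21350284 reads in SRSF1-MKO, and the members' reads ran from 16 to 20348. For Fabp3, Acsl3, Cpt1b, Acads, Hadhb, Etfb, Acot1, Acot2 and Lpl no whole number of reads was found at the annotated length, so their reads are approximate and reads shared with other copies may enter their FPKM.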

How the data were processed

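RNA of 1 WT and 1 SRSF1-MKO hindlimb muscle sample was sequenced; per the labels' protocols, it was taken with Trizol and made into libraries by a Lifetech procedure. The authors deposited FPKM values, 1 column per genotype, with zeros kept and no common sum. Bowtie and mm10 are named in the submitters' processing notes; the counter, annotation, strand setting and versions were not given in the sources used here. A single line of the deposited file is blank and was skipped.

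Calculations used Python 3.11.15, numpy 2.4.6, pandas 2.3.3 and scipy 1.17.1, and were tested on simulated data. Ratios are log2((SRSF1-MKO FPKM + 1)/(WT FPKM + 1)) among the 10478 genes that averaged at least 1 FPKM. All 175 symbols used were matched, 4 through a newer name. The library totals are common divisors, across genes, of whole reads over FPKM: 23146640 for WT and 21350284 for SRSF1-MKO. With them 94.7% of 10441 genes had whole reads (within 1e-06) at some length up to 30000, against 0.0958% with the WT total changed by 1 part in 10000. A member's reads are those at the smallest such length, raised to the largest multiple not above the longest GENCODE M21 (GRCm38) transcript. For 9 members (8 with a smallest length over 1.5 times that transcript, 1 with none) reads are FPKM times total times that transcript. Intervals are exact (Clopper-Pearson) 95% binomial intervals and cover counting error only.

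Named are all members, Srsf1, up to 3 genes of each neighbouring list with the largest ratios, all genes where a count was 5 or fewer (apart from 1 gene of the peroxisomal list, which is not reported here), and the defining markers; Ppara, Ppard, Pparg, Ppargc1a, Esrra and Esrrg were named for their roles after their values were seen. Members and lists were chosen with earlier results of these data known. Alternatives changed the pseudocount, filter, scaling and fold.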

Additional observations from a re-analysis of the deposited data

How the results depend on the processing

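With 1 library per genotype no replicate could be left out. No paired analysis was possible because each group holds 1 library. No called member changed sign under any alternative. Scaled to a common FPKM sum, 10 members were higher and 5 lower, and 1534 of all genes were higher and 1827 lower; the median log2 ratio was 0.19 for members, -0.18 for uptake and activation, -0.23 for lipid droplet and 0.31 for oxidation genes. With the median of genes averaging at least 5 FPKM set to 0, the counts were 9 and 5 for members and 1198 and 1896 for all genes. The medians were then 0.16, -0.24, -0.27 and 0.27. Of the 16 higher members 10 remained under the first scaling and 9 under the second, and 3 members within 1.5-fold (Acsl4, Plin3 and Mgll) became lower under both. At a call of 2-fold, 9 members were higher, and 989 of all genes were higher and 327 lower. A mean of 5 FPKM or more left 1570 of all genes higher and 427 lower, with medians of 0.31 for uptake and activation and 0.45 for lipid droplet genes; there 14 of 30 members (46.7%) were higher, against 31.5% of all genes. With no filter the medians were 0.36 for members and 0.25 for lipid droplet genes, since Plin5 and Ehhadh then enter. A pseudocount of 0.1 and a sum without mitochondrially encoded genes and ribosomal RNA each gave 17 higher and 3 lower members, with Cpt1b and Plin3 added. Of all genes 3088 were higher and 1174 lower with that pseudocount, and 2885 and 1038 with that sum. Depth limits the members with few reads, chiefly Plin5, Ehhadh, Acot1 and Acot2, the 4 with under 100 reads in a library.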

Other observations

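The length at which reads became whole was over 1.5 times the longest annotated transcript for 8 members. It was 1.85 times for Acads, 2 times for Acsl3 and for Cpt1b, 2.39 times for Acot1, 3.04 times for Etfb, 3.11 times for Fabp3, 4.01 times for Acot2 and 5.78 times for Hadhb. For 21 members it was within 10% of that transcript, among them Acadl, Acadm, Decr1 and Pnpla2. FPKM ratios between the libraries do not depend on this length. Levels set between genes, the filter and the log2(FPKM + 1) ratios behind the calls do. The deposited table places 4 members (Fabp3, Acsl3, Acadvl and Acadl) on scaffolds outside the main chromosomes.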
